A study of Homo sapiens with 12 samples.

Results

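Ribosome biogenesis and nucleolar genes were examined as a set of 48 genes, MYC included, among the 26485 genes of the series. The 48 were chosen by name, and each was found in all 6 deposited comparison tables. All 48 passed the filter on low values (a mean of at least 10 normalized reads over the 12 libraries), which left 11729 genes to test.

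The cells were HT-29, an established human colon adenocarcinoma line, and every group was treated for 8 h. In the TSZ group, which induces necroptosis, the dose of TNFα was 10 ng/ml, that of the Smac mimetic SM-164 was 50 nM and that of the caspase inhibitor zVAD was 20 μM. The TSZ+Nec-1s group had Nec-1s, an inhibitor of the RIPK1 kinase, added to these at 10 μM, the TNFα group had only TNFα at 10 ng/ml, and the DMSO group had vehicle. Each group held 3 libraries of polyA RNA from this 1 line, and no label ties them to separate cultures, so p-values measure only the spread between libraries, which may be technical.

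Ribosomes are assembled in the nucleolus, a nuclear body built around the ribosomal RNA genes. RNA polymerase I transcribes the long precursor of the ribosomal RNAs, guided by the factors UBTF and RRN3. Small nucleolar ribonucleoprotein particles (snoRNPs) modify this precursor, and the small subunit processome and the large subunit assembly factors fold, cut and package it. MYC is a transcription factor well known for raising the expression of this whole machinery in growing and tumour cells. PolyA RNA holds the mRNAs of these factors and not the ribosomal RNA itself, which was not measured here.

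The files gave group means, from which the reads of every library were recovered for all 48 genes. Levels are normalized reads, that is reads divided by a library's size factor, and the letters a, b and c name the libraries of each group in the order of the values listed. Estimated depth ran between 8812576 and 12729173 reads per library. In 3 libraries genes of low transcript GC content had more reads than in the rest of their group. Spearman's rho between GC content and a gene's deviation from its group mean was -0.74 in TSZ library a, -0.59 in TNFα library a and -0.79 in DMSO library b, over 11524 genes, while the TSZ+Nec-1s libraries lay between -0.14 and 0.23. Counts of called members are given with all libraries, without TSZ library a and DMSO library b, and without these and TNFα library a.

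The label of colon epithelium was checked against 11 markers. In every group 8 of the 11 reached a mean of 10, led by KRT8, while CDX1, CDX2 and CDH17, which mark intestinal identity, were under 10 normalized reads in every library. The summed epithelial markers lay between 213896 and 215574 normalized reads in TSZ, 145796 and 146293 in TSZ+Nec-1s, 151261 and 153520 in TNFα, and 141507 and 144702 in DMSO, with KRT8 and KRT18 entered at their group means. Of 6 leukocyte markers, PTPRC and CD3E had 0 reads in all 12 libraries. The leukocyte sum, almost all of it LYZ, which intestinal epithelium also makes, was 19320 to 20755 in TSZ, 15231 to 16022 in TSZ+Nec-1s, 15185 to 15223 in TNFα (LYZ at its group mean) and 14863 to 15195 in DMSO. The sum of 7 fibroblast and endothelial markers was 211 to 488 in TSZ, 42.7 to 59.9 in TSZ+Nec-1s, 47.2 to 63.1 in TNFα and 51.3 to 194 in DMSO, with CDH5 at 0 in all. The part of these shifts in the results below was not tested.

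The first question was how TSZ changed the set. Against DMSO, 15 of the 48 genes were lower in TSZ and 5 were higher at an adjusted p under 0.05 (limma across all tested genes, Benjamini-Hochberg adjustment). The lower genes were led by the RNA polymerase I factors UBTF, POLR1B and POLR1A, at 0.47, 0.50 and 0.54 of their DMSO level. The 5 higher genes were MYC, RRP12, GNL2, NHP2 and DDX10. The median log2 fold change was -0.20 over the 48 genes and -0.02 over all genes tested. Changes were frequent throughout the transcriptome in this comparison, with 24.2% of all genes lower and 26.0% higher. The 31.2% of members that were lower therefore stood near the background share, and the 10.4% that were higher stood below it.

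These counts moved with the scaling and with the GC-following libraries. Scaling by total reads in place of size factors moved the median of all genes by -0.41 (log2) and gave 35 lower members and 1 higher member (MYC), with 48.5% of all genes lower and 14.1% higher. Upper quartile scaling moved that median by -0.12 and gave 3 higher members, with 3518 of all genes lower and 2484 higher, against 2835 and 3045 with size factors. Dropping the filter also gave 3 higher members (18.6% of the larger set of genes then tested), as did leaving out TSZ library c (23.1% of all genes). Removing the GC trend gave 24 lower members, or 50%, with 37.4% of all genes lower. A fit of only these groups gave 8 lower and 3 higher members, or 16.7% and 6.25%, with 17.2% of all genes lower and 20.1% higher. Without TSZ library a and DMSO library b 18 members were lower and 7 higher, or 37.5% and 14.6%, with 26.8% of all genes lower and 30.7% higher, and these held all 20 of the first calls. The genes added were PES1, NOP16 and DDX56 (lower) and NPM1 and DDX21 (higher). Without TNFα library a as well, chosen after seeing the data, 22 members were lower and 8 higher, or 45.8% and 16.7%. Of all genes 28.8% were lower and 32.6% higher in that fit. The shares of all genes thus moved along with those of the members. MYC stayed higher, and POLR1A, POLR1B, UBTF, NOP56, DKC1, NOL6, RRS1 and RRP1B stayed lower, in each of 17 alternatives (other scalings, filters, tests and GC corrections, and single libraries left out). POLR1E, MYBBP1A, UTP20, WDR3, NOP14, NOP2 and MRTO4 lost the call in the fit of only these groups.

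**Figure D1:**
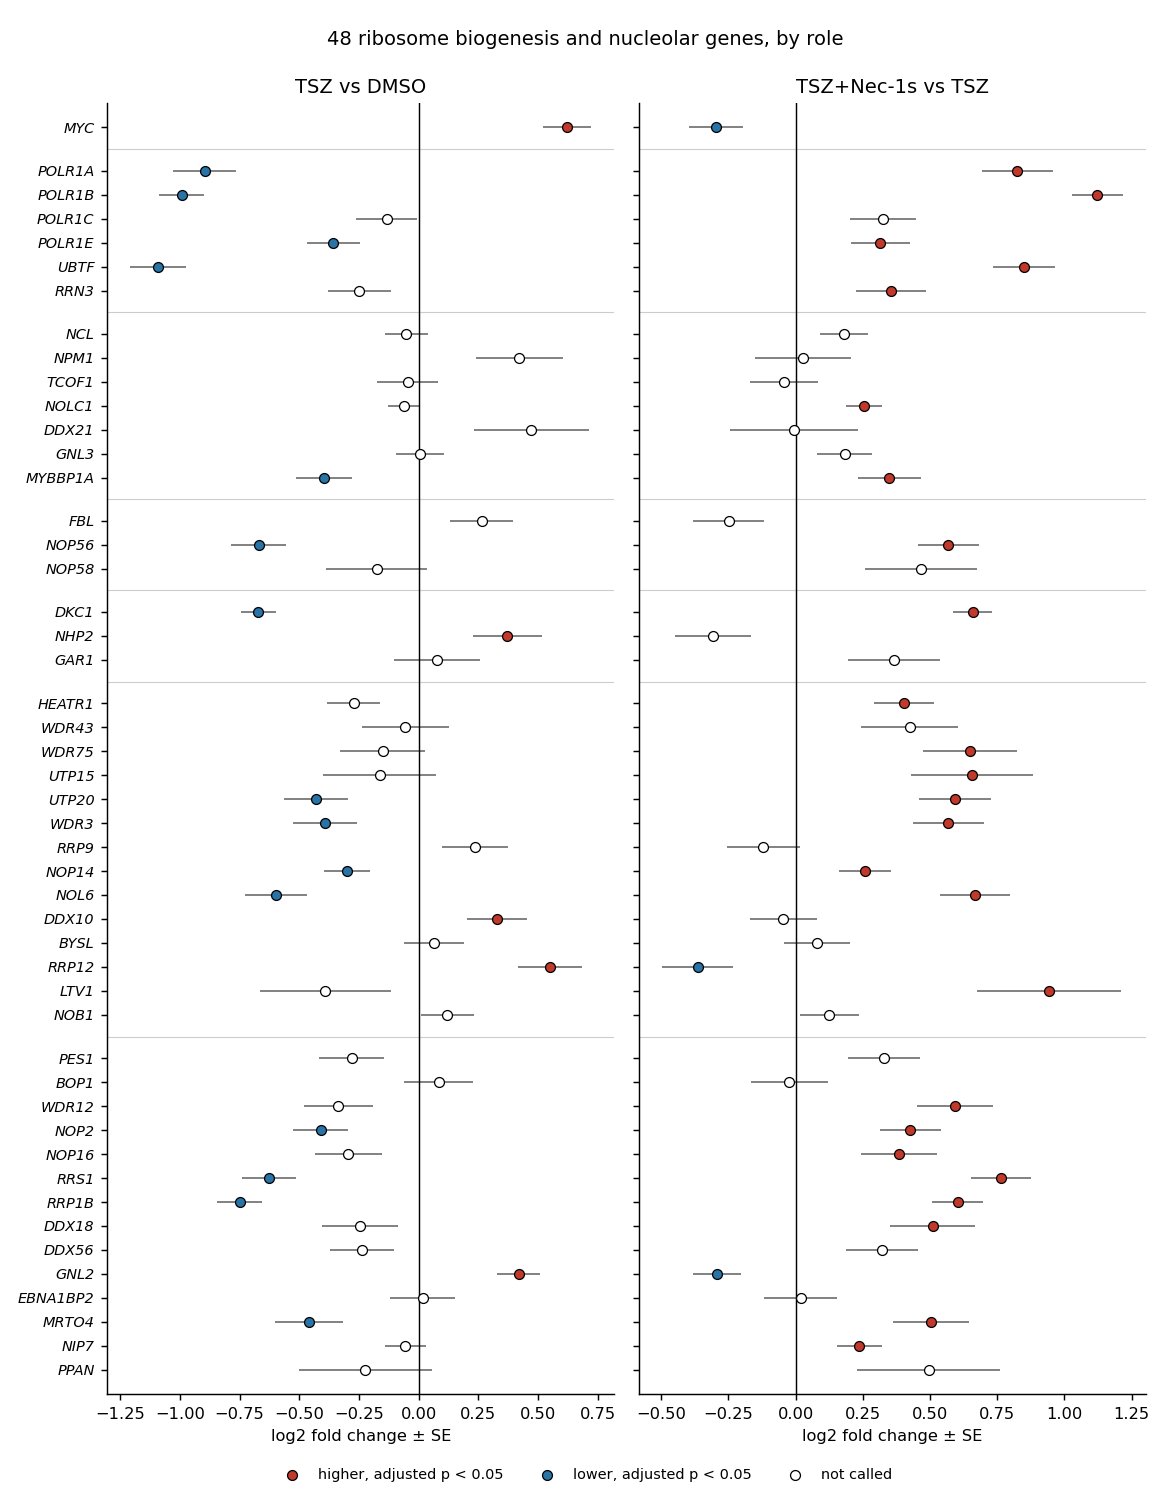
Log2 fold change (x axis, with SE) of each of the 48 genes (y axis, grouped by role, from MYC at the top to the large subunit assembly factors), for TSZ against DMSO on the left and TSZ+Nec-1s against TSZ on the right; filled points passed an adjusted p of 0.05. The 15 genes lower in TSZ than in DMSO all lie to the right of 0 in the second panel.

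MYC rose. Its level was 5037, 6075 and 6255 normalized reads in TSZ, 4591, 4704 and 4772 in TSZ+Nec-1s, 4741, 5128 and 5219 in TNFα, and 3873, 3336 and 4061 in DMSO. Every TSZ, TSZ+Nec-1s and TNFα library was above every DMSO library. The log2 fold change was 0.62 ± 0.10 (SE) for TSZ over DMSO (adjusted p = 0.000233 by limma), and 0.42 ± 0.10 for TNFα over DMSO (adjusted p = 0.0328). The rise with TNFα lost the call in 6 of the 17 alternatives, among them leaving out DMSO library a or any of the TNFα libraries. TSZ+Nec-1s over DMSO gave 0.32 ± 0.10, with an adjusted p of 0.0537 that missed the threshold. Between treatments MYC was lower in TSZ+Nec-1s than in TSZ by a log2 fold change of -0.30 ± 0.10 (adjusted p = 0.0302). That difference changed sign when libraries were scaled by total reads (0.037). TSZ over TNFα gave 0.20 (95% interval -0.02 to 0.42), which was not called and was -0.15 under total read scaling.

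The RNA polymerase I group fell furthest in TSZ. Of its 6 genes, 4 (66.7%) were lower than in DMSO, against 24.2% of all genes, and none was higher. The median log2 fold change of the group was -0.63. UBTF, the upstream binding factor that marks active ribosomal RNA genes (chr17:44205033-44221626, minus strand, hg38), had 954, 1240 and 1253 normalized reads in TSZ. It had 2032, 2084 and 2047 in TSZ+Nec-1s, 2413, 2670 and 2521 in TNFα, and 2548, 2141 and 2630 in DMSO. No TSZ library came near the range of any other group. The fall was -1.09 ± 0.12 (adjusted p = 5.88e-06).

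POLR1A and POLR1B encode the catalytic pair of large subunits of RNA polymerase I. POLR1A (chr2:86020216-86106155, minus strand) had 586, 868 and 859 normalized reads in TSZ, 1359, 1343 and 1328 in TSZ+Nec-1s, 1576, 1606 and 1776 in TNFα, and 1447, 1317 and 1475 in DMSO. POLR1B (chr2:112541915-112579818, plus strand) had 496, 481 and 515 in TSZ, 1094, 1079 and 1075 in TSZ+Nec-1s, 1166, 1052 and 1178 in TNFα, and 947, 1089 and 943 in DMSO. For each of these genes all TSZ libraries were below all libraries of the other 3 groups. The TSZ over DMSO log2 fold changes were -0.90 ± 0.13 for POLR1A (adjusted p = 0.000104) and -0.99 ± 0.10 for POLR1B (adjusted p = 2.48e-06).

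POLR1E, a subunit of the polymerase's dimerization module, was lower by a smaller margin at -0.36 ± 0.11 (adjusted p = 0.0163), and this call was lost without TSZ library b or TSZ library c. RRN3, which recruits the polymerase to the promoter, had 1013, 929 and 750 normalized reads in TSZ, 1141, 1144 and 1133 in TSZ+Nec-1s, 1179, 952 and 1093 in TNFα, and 1032, 1220 and 943 in DMSO. Its TSZ and DMSO libraries overlapped, and its log2 fold change of -0.25 (95% interval -0.53 to 0.04) was not called, and 3 annotated pseudogenes carry its name. POLR1C, a subunit shared with RNA polymerase III, gave -0.13 (-0.41 to 0.14), and it overlaps 3 coding genes on the other strand in an assay counted without strand. Summed over the 6 genes, the level was 3940, 4411 and 4237 normalized reads in TSZ, 6688, 6744 and 6732 in TSZ+Nec-1s, 7491, 7676 and 7810 in TNFα, and 7070, 6726 and 7077 in DMSO. In bulk RNA, fewer cells that express a gene and less of its mRNA per cell cannot be told apart.

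**Figure D2:**
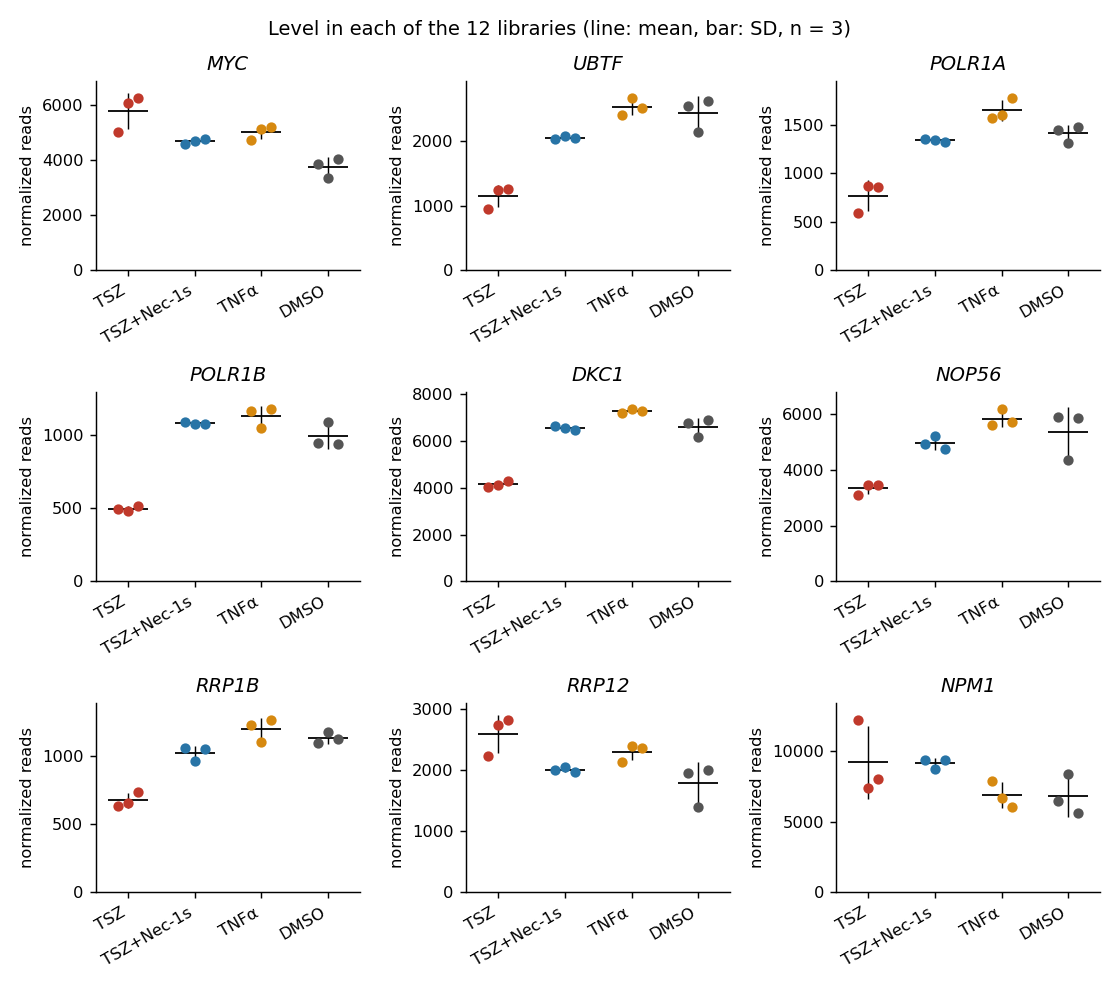
Normalized reads (y axis, from 0) of 9 genes in each library of TSZ, TSZ+Nec-1s, TNFα and DMSO (x axis); points are libraries, horizontal lines are means and vertical bars are the SD (n = 3). UBTF, POLR1A, POLR1B, DKC1, NOP56 and RRP1B are lowest in the 3 TSZ libraries, MYC and RRP12 are highest there on average, and NPM1 spreads widely within TSZ and DMSO.

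Of 7 genes for nucleolar scaffold and multifunctional proteins, 1 (14.3%) was lower in TSZ, against 24.2% of all genes, and none was higher. The lower gene was MYBBP1A, a nucleolar MYB-binding protein. It had 1127, 1306 and 1381 normalized reads in TSZ, 1572, 1630 and 1640 in TSZ+Nec-1s, 1826, 2094 and 1940 in TNFα, and 1758, 1404 and 1879 in DMSO. Its log2 fold change of -0.40 ± 0.12 for TSZ over DMSO (adjusted p = 0.0131) lost the call without DMSO library a or TSZ library a. NCL (nucleolin), an abundant RNA-binding protein of the nucleolus, had 23288, 18560 and 20333 in TSZ, 23957, 22933 and 23244 in TSZ+Nec-1s, 24486, 21732 and 21216 in TNFα, and 21127, 22264 and 20816 in DMSO. The TSZ libraries straddled the DMSO libraries, and the log2 fold change was -0.05 (95% interval -0.25 to 0.14).

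NOLC1, a chaperone of snoRNPs, had 6226, 6494 and 6388 normalized reads in TSZ, 7563, 7658 and 7562 in TSZ+Nec-1s, 7719, 7479 and 7823 in TNFα, and 6624, 6734 and 6609 in DMSO. The groups were tight, and TSZ+Nec-1s and TNFα sat above the other groups. TSZ over DMSO was -0.06 (-0.21 to 0.08), whereas TSZ+Nec-1s over TSZ was 0.25 ± 0.07 (adjusted p = 0.0081).

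NPM1 (nucleophosmin), which helps to form the granular layer of the nucleolus, had 12173, 7400 and 8061 normalized reads in TSZ, 9400, 8758 and 9361 in TSZ+Nec-1s, 7883, 6685 and 6069 in TNFα, and 6446, 8399 and 5594 in DMSO. The highest library of TSZ, of TNFα and of DMSO was in each case the library that follows GC content. Its transcript has 37.9% GC, and 49 annotated pseudogenes carry its name, so its count is less certain than the others. TSZ over DMSO was 0.42 ± 0.18 (adjusted p = 0.07), which was not called. Whether it passed turned on the GC-following libraries. NPM1 was called higher without TSZ library a and DMSO library b (0.36, adjusted p = 0.00378), and without DMSO library b alone (0.58, adjusted p = 0.00878). It was also called with the GC trend removed (0.32, adjusted p = 0.00977), and not without TSZ library a alone (0.20, adjusted p = 0.296). DDX21, an RNA helicase, gave 0.47 (-0.05 to 0.996) with the same spread and was not called. It too was called without TSZ library a and DMSO library b (0.58, adjusted p = 0.000346), without DMSO library b alone (0.79, adjusted p = 0.00154) and with the GC trend removed (0.47, adjusted p = 0.00661), and not without TSZ library a alone (0.27, adjusted p = 0.392). TCOF1 (treacle), which supports transcription of the ribosomal RNA genes, and GNL3 (nucleostemin), a GTP-binding protein of the nucleolus, gave -0.05 (-0.32 to 0.23) and 0.01 (-0.22 to 0.23).

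Among the members, 1 core protein of 3 (33.3%) in each kind of snoRNP was clearly lower in TSZ, and NHP2 was higher. Of all genes 24.2% were lower. In the box C/D particle, which methylates ribosomal RNA, NOP56 was lower and the methyltransferase FBL (fibrillarin) was not called. NOP56, a core scaffold, had 3121, 3472 and 3473 normalized reads in TSZ, 4927, 5227 and 4748 in TSZ+Nec-1s, 5613, 6182 and 5744 in TNFα, and 5907, 4372 and 5867 in DMSO. All TSZ libraries were below all others, with a log2 fold change over DMSO of -0.67 ± 0.11 (adjusted p = 0.000311). FBL had 6813, 7684 and 8351 in TSZ, 6513, 6615 and 6035 in TSZ+Nec-1s, 6770, 8161 and 7289 in TNFα, and 6820, 5027 and 7359 in DMSO. Its groups overlapped at 0.26 (95% interval -0.02 to 0.55). NOP58, the partner of NOP56, had 2126, 1337 and 1354 in TSZ, 2136, 2166 and 2207 in TSZ+Nec-1s, 1972, 1591 and 1292 in TNFα, and 1885, 2215 and 1329 in DMSO, again with its high values in the GC-following libraries. It gave -0.18 (-0.63 to 0.28), and -0.24 (adjusted p = 0.19) without TSZ library a and DMSO library b. The difference in response between partners was not tested.

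In the box H/ACA particle, which converts uridine to pseudouridine, DKC1 (dyskerin) is the enzyme. It had 4050, 4114 and 4293 normalized reads in TSZ, 6632, 6549 and 6482 in TSZ+Nec-1s, 7201, 7358 and 7287 in TNFα, and 6768, 6179 and 6903 in DMSO. The libraries within each group lay close together and TSZ was separate, at -0.67 ± 0.07 (adjusted p = 7.19e-06). NHP2, a core protein of the same particle, had 1477, 1769 and 1670 in TSZ, 1272, 1332 and 1359 in TSZ+Nec-1s, 1331, 1624 and 1397 in TNFα, and 1388, 975 and 1483 in DMSO. It passed the test upward (0.37 ± 0.14, adjusted p = 0.0455), but the TSZ and DMSO libraries overlapped by 1 library. The call was lost, among others, without DMSO library b, TSZ library b or TSZ library c. Under total read scaling its fold change turned to -0.042. GAR1, another core protein, had 348, 304 and 232 in TSZ, 365, 344 and 425 in TSZ+Nec-1s, 303, 339 and 315 in TNFα, and 238, 355 and 252 in DMSO. It gave 0.08 (-0.31 to 0.46). NOP10, a core protein outside the set, was called higher in TSZ than in DMSO and lower in TSZ+Nec-1s than in TSZ.

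Among 14 genes of the small subunit processome and of small subunit maturation, 4 were lower in TSZ (NOL6, UTP20, WDR3 and NOP14) and 2 were higher (RRP12 and DDX10). These are 28.6% and 14.3%, against 24.2% and 26.0% of all genes, so the lower share stood near the background. NOL6, a processome component, had 1194, 1600 and 1633 normalized reads in TSZ, 2315, 2358 and 2295 in TSZ+Nec-1s, 2698, 2850 and 2840 in TNFα, and 2316, 1856 and 2504 in DMSO. It was lower in every TSZ library, by -0.60 ± 0.13 (adjusted p = 0.00209). NOP14, also of the processome, had 1923, 2159 and 2112 in TSZ, 2395, 2523 and 2481 in TSZ+Nec-1s, 2676, 2935 and 2867 in TNFα, and 2720, 2213 and 2718 in DMSO. The margin to the lowest DMSO library was small, and the change of -0.30 ± 0.10 (adjusted p = 0.0204) was lost without DMSO library a, DMSO library c or TSZ library a.

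UTP20 and WDR3, further processome proteins, fell by less. UTP20 gave -0.43 ± 0.13 (adjusted p = 0.0176) and lost the call without TSZ library b. WDR3 gave -0.39 ± 0.13 (adjusted p = 0.0261), with overlapping libraries, and lost it without DMSO library a or b or TSZ library b or c. UTP20 is shown with its promoter, since it was the only gene of the set called in any comparison whose promoter window held the MYC-binding E-box CACGTG. The 40 bases before its RefSeq start (GRCh38.p14, chr12:101280065-101280104, plus strand, 5′ to 3′) read as follows, with the E-box in capitals:
UTP20: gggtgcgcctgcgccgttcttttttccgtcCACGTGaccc

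RRP12, a nuclear export factor of pre-ribosomal particles, rose. It had 2234, 2736 and 2807 normalized reads in TSZ, 1997, 2040 and 1972 in TSZ+Nec-1s, 2138, 2389 and 2355 in TNFα, and 1958, 1388 and 2000 in DMSO. All TSZ libraries were above all DMSO libraries, at 0.55 ± 0.13 (adjusted p = 0.00423), and the call was lost only under total read scaling (0.14). DDX10, an RNA helicase, gave 0.33 ± 0.13 (adjusted p = 0.046), and its sign turned under total read scaling (-0.085). That call held in 7 of the 17 alternatives and was lost, among others, without DMSO library a, DMSO library c, TSZ library a or TSZ library c. NOB1, the endonuclease that makes the final cut of small subunit ribosomal RNA, had 1575, 1690 and 1752 in TSZ, 1794, 1843 and 1828 in TSZ+Nec-1s, 1739, 2068 and 1882 in TNFα, and 1634, 1295 and 1717 in DMSO. It gave 0.12 (-0.12 to 0.36).

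The other small subunit genes were not called. HEATR1 gave -0.27 (95% interval -0.52 to -0.03), WDR75 -0.15 (-0.54 to 0.24), UTP15 -0.16 (-0.68 to 0.35) and WDR43 -0.06 (-0.45 to 0.34). These are subunits of the processome branch that couples transcription and processing. RRP9, a protein of the U3 snoRNP, gave 0.24 (-0.06 to 0.53), and the late maturation factors BYSL and LTV1 gave 0.06 (-0.21 to 0.33) and -0.39 (-0.99 to 0.21). LTV1 had 587, 324 and 336 normalized reads in TSZ and 456, 821 and 390 in DMSO, and the highest library of each of these groups was the one that follows GC content. Without these libraries LTV1 gave -0.36 (adjusted p = 0.0662) and UTP15 -0.11 (adjusted p = 0.557). LTV1 was called lower only without TNFα library a as well (adjusted p = 0.0149), and UTP15 only with the GC trend removed (-0.25, adjusted p = 0.0385), among the settings that bear on GC content.

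Among 14 large subunit assembly genes, 4 were lower in TSZ (RRP1B, RRS1, MRTO4 and NOP2) and 1, GNL2, was higher. These are 28.6% and 7.14%, against 24.2% and 26.0% of all genes, so the lower share again stood near the background. RRP1B, a nucleolar protein bound to pre-ribosomal RNA, had 633, 653 and 734 normalized reads in TSZ, 1056, 962 and 1047 in TSZ+Nec-1s, 1228, 1104 and 1258 in TNFα, and 1094, 1177 and 1124 in DMSO. Its TSZ libraries were separate from all others, at -0.75 ± 0.10 (adjusted p = 2.97e-05). RRS1, a factor of early large subunit assembly, gave -0.63 ± 0.11 (adjusted p = 0.000491), with 736 ± 50.3 in TSZ and 1142 ± 147 in DMSO (SD, n = 3 each). NOP2, a methyltransferase of large subunit ribosomal RNA, gave -0.41 ± 0.11 (adjusted p = 0.00944), and lost the call in the fit of only TSZ and DMSO.

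MRTO4, a placeholder for the ribosomal stalk, had 1559, 1785 and 1842 normalized reads in TSZ, 2395, 2501 and 2444 in TSZ+Nec-1s, 2410, 2977 and 2614 in TNFα, and 2640, 1836 and 2740 in DMSO. The TSZ and DMSO libraries overlapped by 1 library, and the change of -0.46 ± 0.14 (adjusted p = 0.0166) lost the call without DMSO library a, DMSO library c or TSZ library a. GNL2, a GTPase of late nucleolar assembly, went the other way. It had 1827, 1703 and 1792 in TSZ, 1457, 1448 and 1438 in TSZ+Nec-1s, 1481, 1583 and 1381 in TNFα, and 1413, 1206 and 1367 in DMSO, and no TSZ library overlapped another group. The rise over DMSO was 0.42 ± 0.09 (adjusted p = 0.00167), and it shrank to 0.0064 under total read scaling, without the call.

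PES1, BOP1 and WDR12 form a complex needed for large subunit maturation, and none of these was called. PES1 gave -0.28 (95% interval -0.57 to 0.01), WDR12 -0.34 (-0.65 to -0.03) and BOP1 0.08 (-0.23 to 0.39). BOP1 had 2169, 2581 and 2577 normalized reads in TSZ, 2413, 2405 and 2368 in TSZ+Nec-1s, 2488, 2926 and 2644 in TNFα, and 2382, 1783 and 2853 in DMSO, with DMSO library b the lowest. The other large subunit genes were the helicases DDX18 and DDX56 and the assembly factors NOP16, EBNA1BP2, NIP7 and PPAN. Their log2 fold changes ran between -0.29 (NOP16) and 0.02 (EBNA1BP2), and none was called. PPAN was low, at 56.2 ± 22.7 in TSZ and 63.7 ± 15.9 in DMSO (SD, n = 3 each), and overlaps P2RY11 on the same strand. Among the genes called for TSZ against DMSO, GNL2, MYBBP1A, NHP2 and WDR3 overlap a coding gene on the other strand, and NOP2 and RRS1 one on the same strand, so their reads could be shared. Annotated pseudogenes carry the names of NOP56 (3), NHP2 (2), DDX10 (2) and GNL2 (1).

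The second question was whether Nec-1s changed these genes in TSZ-treated cells. It did for a majority in the fit of all libraries with the filter. In TSZ+Nec-1s 25 of the 48 genes were higher than in TSZ and 3 were lower, or 52.1% and 6.25%, against 19.8% and 22.6% of all genes. The median log2 fold change was 0.35 for the set and 0.02 for all genes. The 15 genes that were lower in TSZ than in DMSO were all among the 25, and the 3 that were lower (MYC, RRP12 and GNL2) were all among the 5 that were higher in TSZ. These comparisons share the TSZ libraries, so such overlap is partly built in.

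POLR1B had the largest gain of the set with Nec-1s, at 1.12 ± 0.10 (adjusted p = 1.2e-06). UBTF gained 0.85 ± 0.12, POLR1A 0.83 ± 0.13, RRS1 0.77 ± 0.11, NOL6 0.67 ± 0.13 and DKC1 0.66 ± 0.07, with adjusted p-values between 1.33e-05 and 0.00125. LTV1 had 829, 706 and 782 normalized reads in TSZ+Nec-1s, all above its TSZ libraries. It gained 0.94 ± 0.27 (adjusted p = 0.0127), a call that was lost without TSZ library b or TSZ library c. By role, 5 of 6 RNA polymerase I genes, 8 of 14 small subunit genes and 8 of 14 large subunit genes were higher. These are 83.3%, 57.1% and 57.1%, against 19.8% of all genes. Of the 7 scaffold genes 2 (NOLC1 and MYBBP1A) were higher, or 28.6%, as was 1 gene of each snoRNP (NOP56 and DKC1), or 33.3%. Genes called here and not for TSZ against DMSO were RRN3, NOLC1, HEATR1, WDR75, UTP15, LTV1, WDR12, NOP16, DDX18 and NIP7. Of these, RRN3, HEATR1, UTP15, WDR12, NOP16 and NIP7 overlap coding genes on the other strand, and LTV1 on the same strand. Annotated pseudogenes carry the names of DDX18 (5), RRN3 (3), NIP7 (3), NOLC1 (1) and LTV1 (1).

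Of the 25 higher genes, 16 passed in each of the 17 alternatives, and leaving out single libraries gave between 17 and 25. The 3 lower genes were less firm. Leaving out TSZ library c, or any of the TSZ+Nec-1s libraries, gave 0, leaving out TSZ library b gave 1, and upper quartile and total read scaling each gave 0. Of all genes 18.2% to 18.5% were lower without 1 of these libraries, and 19.1% with upper quartile scaling. Total read scaling, which moved the median of all genes by 0.33, gave 38 higher members, with 42.1% of all genes higher and 11.8% lower. Without TSZ library a and DMSO library b, 34 members were higher and 5 lower, or 70.8% and 10.4%, with 29.2% of all genes higher and 30.7% lower, and all 28 of the first calls were among them. Without TNFα library a as well, 35 were higher and 7 lower, or 72.9% and 14.6%, with 31.0% and 31.9% of all genes.

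The third question was what TNFα alone, and TSZ with Nec-1s, did relative to DMSO. With TNFα, MYC was higher and no other member was called, against 3.13% of all genes higher and 1.08% lower. At an unadjusted p under 0.05, 11 members were higher and 0 lower, where 1084 of all 11729 genes were higher and 688 lower. The fold change was above 0 for 45 of the 48 genes, with a median of 0.18, where 49.8% of all genes were above 0. The largest after MYC were RRP12 (0.38 ± 0.13), RRP9 (0.38 ± 0.14) and PPAN (0.35 ± 0.25), of which none was called. Total read scaling gave 2.82% of all genes higher and 1.93% lower. Leaving out the GC-following libraries of TSZ and DMSO gave 8 higher members (16.7%), with 6.20% of all genes higher and 4.39% lower. Leaving out TNFα library a as well, chosen after seeing the data, gave 10 (20.8%), with 7.10% of all genes higher and 4.02% lower, and removing the GC trend gave 8, with 6.53% and 6.13%. Upper quartile scaling gave 0, as did a fit of only these groups or leaving out DMSO library a, TNFα library a, TNFα library b or TNFα library c. Of all genes 1.76% to 2.65% were higher in those fits.

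With TSZ+Nec-1s against DMSO, 0 members were called in either direction, against 7.16% of all genes higher and 5.75% lower. At an unadjusted p under 0.05, 10 were higher and 1, UBTF, was lower, at -0.24 ± 0.11 (adjusted p = 0.186). Of all 11729 genes, 1575 were higher and 1519 lower at that unadjusted p. The median of the set was 0.13, and 39 of 48 fold changes were above 0, where 51.7% of all genes were. Total read scaling gave 6.18% of all genes higher and 10.8% lower, and upper quartile scaling 5.84% and 7.13%. The count of 0 members depended on DMSO library b. Without that library 12 members were higher and 2 lower, or 25% and 4.17%, with 19.0% of all genes higher and 14.4% lower. Without it and TSZ library a 19 were higher and 3 lower, or 39.6% and 6.25%, with 24.9% of all genes higher and 20.7% lower. Without DMSO library c 1 member was higher, with 5.82% of all genes. Removing the GC trend gave 7 higher and 1 lower, or 14.6% and 2.08%, with 12.4% of all genes higher and 15.3% lower. Calls over all genes were more frequent too in each of these settings but the one without DMSO library c.

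**Figure D3:**
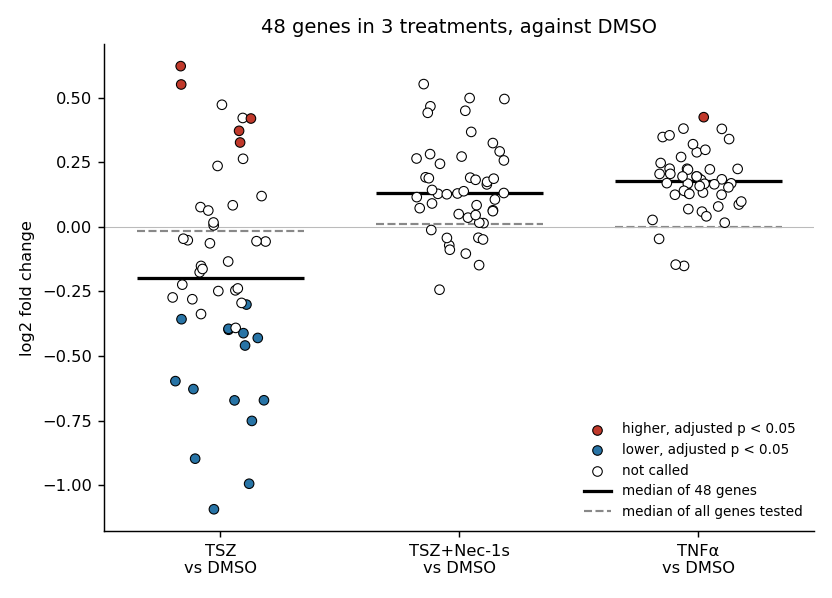
Log2 fold changes over DMSO (y axis) of the 48 genes in TSZ, TSZ+Nec-1s and TNFα (x axis); each point is a gene, filled where the adjusted p was under 0.05, the solid line is the median of the 48 genes and the dashed line the median of all genes tested. The medians of the 48 are -0.20 in TSZ, 0.13 in TSZ+Nec-1s and 0.18 in TNFα; the 3 columns share the DMSO libraries.

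Set directly against TNFα, 23 of the 48 genes were lower in TSZ and 1 (GNL2) was higher, or 47.9% and 2.08%, against 21.6% and 22.7% of all genes. The median log2 fold change was -0.29. The largest differences were again POLR1B (-1.18 ± 0.10), UBTF (-1.15 ± 0.12) and POLR1A (-1.12 ± 0.13), followed by NOL6 (-0.94 ± 0.13), RRS1 (-0.85 ± 0.11), RRP1B (-0.83 ± 0.10) and DKC1 (-0.81 ± 0.07). PES1, POLR1C and DDX56 were lower in this comparison, at -0.55 ± 0.13, -0.48 ± 0.12 and -0.41 ± 0.13. Of the 23 lower genes, 20 passed in each of the 17 alternatives, and total read scaling gave 38, with 42.4% of all genes lower and 12.6% higher. Without TSZ library a and DMSO library b 30 members were lower and 4 higher, or 62.5% and 8.33%. Of all genes 26.2% were lower and 30.05% higher in that fit. The call of GNL2 (0.26 ± 0.09) was lost in 9 of the 17 alternatives, among others without TNFα library a, TNFα library c, TSZ library a or TSZ library c, and turned in sign under total read scaling (-0.083).

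TSZ+Nec-1s against TNFα called 0 members in either direction, where 1.09% of all genes were higher and 0.256% lower. At an unadjusted p under 0.05, 2 members were higher (LTV1 and NPM1) and 5 were lower (UBTF, RRP1B, MYBBP1A, POLR1A and POLR1E). UBTF gave -0.30 (95% interval -0.54 to -0.06, adjusted p = 0.218). A fit of only these groups gave 8 higher and 14 lower members, or 16.7% and 29.2%, with 17.0% of all genes higher and 9.85% lower. Leaving out TSZ library a and DMSO library b gave 8 and 15, or 16.7% and 31.2%, with 17.9% of all genes higher and 11.6% lower, although neither library belongs to these groups. The share of higher members in both settings was near that of all genes. At an unadjusted p under 0.05 the shared fit had 1168 of all genes higher and 921 lower. Total read scaling gave 1.09% of all genes higher and 0.46% lower.

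Further genes of the pathway were read from lists chosen with earlier results known. Of 116 other ribosome biogenesis genes, 37 were lower and 11 higher in TSZ than in DMSO, with a median of -0.29. These are 31.9% and 9.48%, against 24.2% and 26.0% of all genes, so the lower share stood near the background and the higher share below it. With Nec-1s, 52 were higher and 5 lower than in TSZ, or 44.8% and 4.31%, against 19.8% and 22.6% of all genes, with a median of 0.39. Against TNFα 52 were lower and 6 higher in TSZ, or 44.8% and 5.17%, against 21.6% and 22.7% of all genes. POLR3B, a large subunit of RNA polymerase III, fell furthest, to 107 ± 7.48 normalized reads in TSZ against 359 ± 49.0 in DMSO (SD, n = 3 each, log2 fold change -1.74 ± 0.14, adjusted p = 5.27e-07). NOL11, a processome protein, was at 965 ± 195 in TSZ and 1791 ± 457 in DMSO (-0.88 ± 0.18, adjusted p = 0.00113). EXOSC2, a subunit of the exosome that trims ribosomal RNA, was at 446 ± 39.5 in TSZ and 889 ± 96.3 in DMSO (-0.99 ± 0.11, adjusted p = 8.68e-06). GLTSCR2, a large subunit factor, went up, with 4488 ± 632 in TSZ and 1923 ± 455 in DMSO (1.24 ± 0.16, adjusted p = 3.05e-05).

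Genes around MYC were read from 2 more lists. Of 11 tested network partners, 4 were higher in TSZ than in DMSO (MNT, MXD1, MXI1 and ZBTB17) and 0 were lower (2 at an unadjusted p under 0.05). Of all genes 24.2% were lower, and 3233 of 11729 at that unadjusted p. The 36.4% that were higher, beside 26.0% of all genes, is a difference of about 1 gene in 11. MXD1, which pairs with MAX and opposes MYC at its target genes, had 4158 ± 203 normalized reads in TSZ, 349 ± 25.9 in TSZ+Nec-1s, 319 ± 59.3 in TNFα and 237 ± 50.3 in DMSO (SD, n = 3 each). The TSZ over DMSO log2 fold change was 4.15 ± 0.15 (adjusted p = 1.87e-10), and TSZ+Nec-1s over TSZ gave -3.57 ± 0.14 (adjusted p = 7.89e-10). MXI1 and MNT, repressors that also pair with MAX, were lower in TSZ+Nec-1s than in TSZ as well. Of 20 tested MYC targets outside the nucleolus, 4 were higher and 4 lower in TSZ, or 20% each, below the 26.0% and 24.2% of all genes. FOSL1, an AP-1 subunit, was at 9764 ± 1294 in TSZ and 748 ± 126 in DMSO (3.71 ± 0.13, adjusted p = 1.13e-10).

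Transcript GC content differed widely among the 48 genes, between 37.7% (WDR75) and 65.6% (BOP1), with a median of 48.6%. Across the 48, Spearman's rho between GC content and the excess of a library over the rest of its group was -0.84 in TSZ library a, -0.74 in TNFα library a and -0.85 in DMSO library b. The TSZ over DMSO fold change had a rho of -0.05 with GC content. These are descriptions across genes that share the same libraries, and genes are not replicates. In DMSO library b the excess was 0.96 (log2) for LTV1 and 0.83 for UTP15, and -0.63 for PPAN. In TSZ library a it was 0.83 for LTV1 and 0.66 for NPM1, and -0.56 for POLR1A. The share of reads that fell on the 48 genes was 0.848% to 0.934% in TSZ, 1.27% in each TSZ+Nec-1s library, 1.26% to 1.33% in TNFα and 1.21% to 1.24% in DMSO. This share is of total reads, and total read scaling moved the median of all genes by -0.41 for TSZ against DMSO. The summed normalized reads differed less, at 108184 to 115611 in TSZ and 115173 to 118797 in DMSO. They were 127343 to 128056 in TSZ+Nec-1s and 125989 to 131318 in TNFα.

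**Figure D4:**
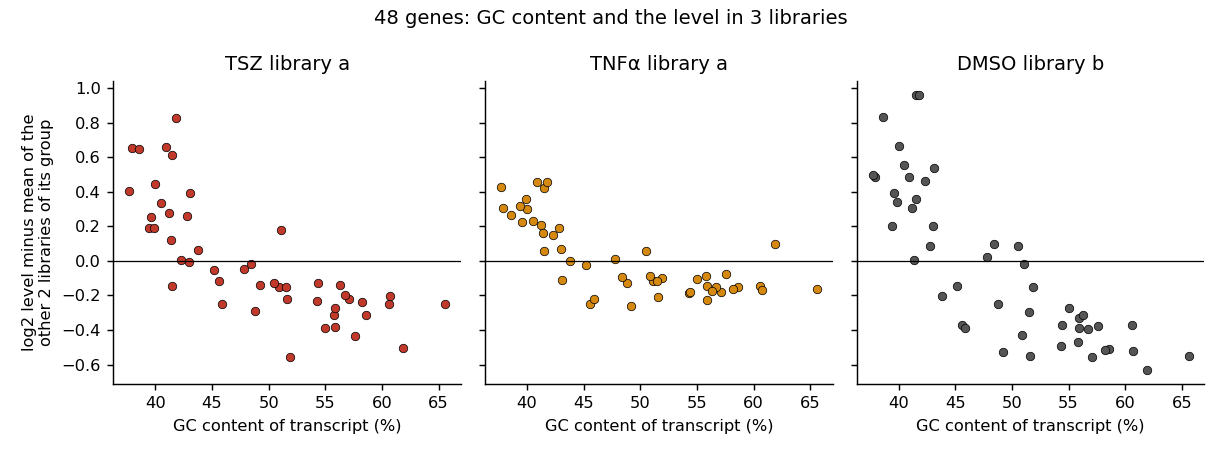
Excess of TSZ library a, TNFα library a and DMSO library b over the mean of the other libraries of its group (y axis, log2) against transcript GC content in percent (x axis), 1 point for each of the 48 genes. Most genes of low GC content lie above 0 and most genes of high GC content below it in all 3 panels, with rho between -0.85 and -0.74.

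The promoters of the set were searched for the E-box CACGTG, which reads the same on both strands, in the 250 bases before each RefSeq start. A window was matched for 38 of the 48 genes, and 3 of these (7.9%) held the motif in at least 1 window (UTP20, DDX21 and EBNA1BP2). Among all genes of the tables with a window, 9.4% of 16199 held it. No other motif was searched.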

How the data were processed

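PolyA RNA of HT-29 cells was sequenced by the authors as single-end reads on an Illumina NextSeq 550. Alignment by the authors used STAR on hg38. They counted reads per gene with HTSeq, ignoring strand, and normalized and compared groups with DESeq (versions are not given in the labels). The paper and the labels name different RNA and library kits. The deposited files are 6 tables of 26485 genes, each with 2 group means of normalized read counts, a signal that the authors averaged over 3 libraries. They also hold the authors' fold changes and p-values, which were not used.

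A group mean is a sum of 3 whole counts over size factors, so the reads of each library were recovered where exactly 1 solution existed (15845 of 15850 expressed genes in DMSO, 15638 of 15664 in TNFα, 15780 of 15798 in TSZ and 15726 of 15733 in TSZ+Nec-1s). The 29 unsolved genes were left out. The letters a, b and c name recovered libraries and match no replicate number. Recovery and test were tested on simulated data, in which no library followed GC content. The simulated recovery covered DMSO and TSZ only and left out genes of high level, MYC among them.

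The 4 groups entered 1 fit (limma 3.58.1 with voom weights, R 4.3.3, prior count 0.5), over the 11729 genes whose mean reached 10. Calls were made at a Benjamini-Hochberg adjusted p under 0.05, and 95% intervals used the moderated standard errors. Estimated totals of 8812576 to 12729173 reads per library set the counting error. Alternatives were upper quartile and total read scaling, no filter or a mean of at least 50, limma-trend with pseudocount 1 or 0.5, GC correction, only the groups compared, and libraries left out. Leaving out the 3 libraries that follow GC most and removing the GC trend within groups were added after seeing the data. GC content, overlaps and positions are from GENCODE 44 (hg38), and promoters from RefSeq (GRCh38.p14). Python 3.11.15, numpy 2.4.6, pandas 2.3.3, scipy 1.17.1 and numba 0.67.0 were used, with matplotlib 3.10.9.

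All 48 genes could be named. Per-library values were given for MYC and, in each role, for up to 4 genes (the largest called rise and fall of TSZ over DMSO with a mean of at least 50, then the highest levels), with LTV1 added after its values were seen. The members and gene lists were chosen with earlier results of these data known.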

Additional observations from a re-analysis of the deposited data

How the results depend on the processing

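No paired analysis was possible because the recovered libraries carry no replicate number. Each comparison was run under 17 alternatives, and 11 of these did not leave out a single library. For TSZ against DMSO, the 5 higher members became 8 with the GC trend within groups removed, 8 without the 3 libraries that follow GC most, 3 with no filter, 3 with only these groups, 3 with upper quartile scaling and 1 with total read scaling. In that order 32.9%, 32.6%, 18.6%, 20.1%, 21.2% and 14.1% of all genes were higher. The 15 lower became 24 with the GC trend removed, 35 with total read scaling and 8 with only these groups. Of all genes 37.4%, 48.5% and 17.2% were lower there. For TNFα against DMSO, the 1 higher member became 8 (GC trend removed), 14 (within groups), 10 (without the 3 libraries), 8 (without TSZ a and DMSO b), 0 (only these groups) and 0 (upper quartile scaling). Of all genes 6.53%, 10.4%, 7.10%, 6.20%, 1.76% and 2.65% were then higher. For TSZ+Nec-1s against DMSO, the 0 higher became 7 (GC trend removed), 13 (within groups), 21 (without the 3 libraries) and 19 (without TSZ a and DMSO b), and the 0 lower became 1, 1, 6 and 3, and 1 with total read scaling. Of all genes 12.4%, 17.8%, 27.0% and 24.9% were then higher. The lower shares of all genes were 15.3%, 14.5%, 23.1% and 20.7%, and 10.8% with total read scaling. For TSZ+Nec-1s against TSZ, the 25 higher became 38 with total read scaling, and the 3 lower became 5 (within groups), 7 (without the 3 libraries), 5 (without TSZ a and DMSO b), 5 (only these groups), 0 (total read scaling) and 0 (upper quartile scaling). Of all genes 42.1% were higher with total read scaling. The lower shares of all genes were 29.7%, 31.9%, 30.7%, 25.0%, 11.8% and 19.1%, in the order given. For TSZ against TNFα, the 1 higher became 4 (within groups), 7 (without the 3 libraries) and 4 (without TSZ a and DMSO b). These are 8.33%, 14.6% and 8.33% of the members, below the 31.41%, 30.34% and 30.05% of all genes then higher. The 1 higher became 0 with total read scaling, upper quartile scaling or only these groups. Of all genes 12.6%, 18.5% and 24.2% were higher there. The 23 lower became 38 with total read scaling, where 42.4% of all genes were lower. For TSZ+Nec-1s against TNFα, the 0 higher became 7 (within groups), 11 (without the 3 libraries), 8 (without TSZ a and DMSO b) and 8 (only these groups), and the 0 lower became 13, 24, 15 and 14, and 1 with the GC trend removed. Of all genes 16.1%, 22.1%, 17.9% and 17.0% were then higher. The lower shares of all genes were 11.6%, 19.1%, 11.6% and 9.85%, and 1.60% with the GC trend removed.

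Leaving out single libraries gave 3 to 6 higher and 11 to 17 lower members for TSZ against DMSO, and 0 to 1 higher and 0 lower for TNFα against DMSO. Of all genes 23.1% to 28.8% were higher and 20.4% to 26.7% lower for TSZ. For TNFα the shares of all genes were 2.07% to 3.28% and 0.358% to 1.83%. It gave 0 to 12 higher and 0 to 2 lower for TSZ+Nec-1s against DMSO, and 17 to 25 higher and 0 to 3 lower for TSZ+Nec-1s against TSZ. For TSZ against TNFα there were 0 to 2 higher and 20 to 23 lower members. Of all genes 19.0% to 22.6% were then higher and 17.9% to 19.1% lower. For TSZ+Nec-1s against TNFα there were 0 members in both directions, with 0.401% to 0.529% of all genes higher and 0.0171% to 0.0341% lower.

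The sign of 17 fold changes of single genes turned where the value passed the threshold in 1 of the 2 fits compared. Under total read scaling TSZ against DMSO gave -0.41 for GNL3, -0.042 for NHP2, -0.085 for DDX10, -0.35 for BYSL, -0.29 for NOB1, -0.33 for BOP1 and -0.40 for EBNA1BP2. TSZ+Nec-1s against TSZ gave 0.037 for MYC, 0.29 for TCOF1 and 0.042 for GNL2, and TSZ against TNFα gave -0.30 for FBL and -0.083 for GNL2. With the GC trend removed, BOP1 gave -0.22 for TSZ against DMSO and 0.28 for TSZ+Nec-1s against TSZ, and WDR3 gave -0.32 for TSZ+Nec-1s against TNFα. Without the 3 libraries that follow GC most, FBL gave -0.15 for TSZ+Nec-1s against DMSO and DDX21 gave 0.20 for TSZ+Nec-1s against TSZ. The cause was not tested. A further 209 of the 4896 values turned in sign where neither was called, so their direction was not stable. Of the rest, 4112 kept their direction and side of the threshold, 424 gained the call and 134 lost it. PPAN and GAR1 had the lowest mean levels of the 48 genes, which limits their precision.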
